A study of Mus musculus with 12 samples.

Results

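The genes described here are the protein-coding mouse genes whose symbol starts with Hnrnp, or with Rbm followed by a digit, x, s or k. The name rule found 65 of the 34513 genes counted, 20 Hnrnp genes and 45 Rbm genes. It used no measured value, but the 65 genes were chosen with earlier results of these data known. Heterogeneous nuclear ribonucleoproteins (hnRNPs) coat pre-mRNA as it leaves RNA polymerase II, and they influence which splice sites are used and how mRNA is exported, stabilised and translated. RBM genes carry the name RNA-binding motif protein, and their products range from core parts of the spliceosome and the exon junction complex to regulators of splicing, adenosine methylation and nuclear RNA decay. Many of these proteins hold their own level steady by steering their transcripts into nonsense-mediated decay or into retained-intron forms.

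Bulk RNA-seq was performed on cultures of 3 mouse lines of the melanocyte lineage. MelanA is a non-tumorigenic line, and B16F0 and B16F10 are melanoma lines, B16F10 being the metastatic one. Each line gave 2 untreated libraries and 2 from cells given SX-682, an antagonist of the chemokine receptors CXCR1 and CXCR2, so that there were 6 groups. The dose and time of SX-682 in the sequenced cultures, and whether the libraries of a group came from separate cultures, are not given in the sources used here, so p-values measure only the spread between these libraries, which may be technical.

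The files held raw read counts per gene, and the libraries totalled 48876982 to 85322092 counts. Levels are given as CPM, the standard share of a gene in the counts of its library, after TMM scaling, which sets each library to a common scale on most genes. Adjusted p-values are 2-sided and come from edgeR's quasi-likelihood test with Benjamini-Hochberg adjustment over all 18338 genes tested, and a gene was called changed under 0.05. The fit estimated a replicate spread of 2.78% for a typical gene, so that small changes passed the threshold. An exact permutation of 2 against 2 libraries cannot go below a 2-sided p of 0.333, so that the tests depend on a spread estimated over many genes and all groups. All 7 melanocyte markers were above 3 counts per library in each group. Their summed level was 1340 to 1370 CPM in MelanA, 15800 to 18700 CPM in B16F0 and 14900 to 24500 CPM in B16F10, and MelanA held only 0.826 CPM of Tyr, the tyrosinase gene. The 5 fibroblast markers summed to 92.4 to 113 CPM in MelanA and at most 16.8 CPM elsewhere, and those of keratinocytes, immune and endothelial cells to at most 13.5 CPM. With SX-682 the melanocyte sum went from 18600 to 18700 down to 15800 to 16000 CPM in B16F0, and from 24400 to 24500 down to 14900 to 15200 CPM in B16F10. Its part in the results below was not tested.

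Of the 65 genes, 61 had enough counts to be tested. The other 4 were Rbm24 with 0 to 4 counts per library, Rbm42 with 0 to 6, Rbm46 with 0 to 2 and Rbmxl2, a copy of Rbmx used in testis, with 0 to 2. Rbm42 encodes a part of the spliceosome, and 75.4% of its exonic bases also belong to Gm21982, an annotated gene that itself held 0 to 2 counts. Rbm4, a splicing regulator, shares 60.5% of its exonic bases with Gm21992, which held 6 to 60 counts. How the authors counted reads on shared exons is not given in the sources used here, and the low counts of Rbm42 and Rbm4 are therefore uncertain.

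The start regions of 6 genes that changed in the same direction in all 3 lines are shown for the promoter motifs they hold. Each sequence covers the 100 bases just before a RefSeq transcription start on build GRCm38.p6, where GENCODE M21 places no exon, and reads 5′ to 3′ on the gene's own strand. Capitals mark matches, on either strand, to the CCAAT box, to CCGGAA (the core bound by ETS factors), to CTCGCGA, to TATAAA or to TGACGT (the core of cyclic AMP response elements, added to the search after the windows had been seen). The first 4 genes were lowered by SX-682 in each line and the last 2 were raised.
Hnrnph1 (chr11:50376890-50376989, plus strand): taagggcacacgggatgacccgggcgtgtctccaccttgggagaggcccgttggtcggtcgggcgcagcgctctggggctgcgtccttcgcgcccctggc
Hnrnpa2b1 (chr6:51469895-51469994, minus strand): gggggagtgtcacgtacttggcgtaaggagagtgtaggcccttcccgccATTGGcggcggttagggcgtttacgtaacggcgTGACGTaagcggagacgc
Rbm5 (chr9:107771003-107771102, minus strand): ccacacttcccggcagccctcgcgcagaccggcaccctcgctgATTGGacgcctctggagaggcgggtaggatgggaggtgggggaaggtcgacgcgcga
Rbm14 (chr19:4811635-4811734, minus strand): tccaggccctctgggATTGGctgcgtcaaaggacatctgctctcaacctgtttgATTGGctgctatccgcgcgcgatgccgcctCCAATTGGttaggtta
Rbm7 (chr9:48495331-48495430, minus strand): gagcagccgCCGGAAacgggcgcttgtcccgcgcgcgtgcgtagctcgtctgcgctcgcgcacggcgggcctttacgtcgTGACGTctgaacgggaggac
Rbm39 (chr2:156180239-156180338, minus strand): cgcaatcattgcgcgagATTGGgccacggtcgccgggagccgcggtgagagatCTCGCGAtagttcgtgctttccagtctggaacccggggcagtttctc
Rbm14 held 4 CCAAT boxes in this stretch, a pair of which overlap in CCAATTGG, whereas Hnrnph1 held none of the motifs. Rbm7 held CCGGAA and TGACGT, Hnrnpa2b1 held CCAAT and TGACGT, and Rbm39 held CCAAT and CTCGCGA. None of the 6 stretches held TATAAA.

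RefSeq promoters were found for 54 of the 65 genes, with 72 windows of 250 bases before a start. CCAAT was present in 48.6% of these windows and in 33.8% of all 32851 windows, and CCGGAA in 22.2% against 12%. CTCGCGA stood in 5.6% against 1.6%, TGACGT in 16.7% against 6.5% and TATAAA in 11.1% against 12.4%. The windows of these genes had a median GC content of 59.6%, against 52.4% over all windows. These matches describe the letters only, and no binding was measured.

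SX-682 lowered most of the tested genes in each line. In MelanA cells 42 of the 61 were lowered and 7 raised, where 24.7% of all genes tested were lowered and 23.4% raised. In B16F0 cells 38 were lowered and 14 raised, against 25% and 25.1% of all genes. In B16F10 cells 37 were lowered and 12 raised, against 25.3% and 25.5% of all genes. As shares of the 61 genes, those lowered were 68.9%, 62.3% and 60.7%. Well-expressed genes were called more often. Of the 52 genes with a mean of at least 10 CPM, 76.9%, 67.3% and 65.4% were lowered, against 38.4%, 38.4% and 39.8% of all such genes. Raised were 11.5%, 23.1% and 21.2% of the 52, against 33.9%, 35.5% and 36.5%. The median log2 fold change of the 61 genes was -0.31 in MelanA, -0.27 in B16F0 and -0.22 in B16F10, whereas the median over all genes was 0 in each line. Falls of at least 0.5 on the log2 scale were seen for 12, 13 and 19 of the genes, where 8%, 9.22% and 10.1% of all genes fell that far. Rises of that size were seen for 1, 3 and 2 of the genes, against 8.3%, 10.2% and 11.4% of all genes. The 1 in MelanA was Rbm12b1, with 7 counts over both SX-682 libraries against 1 over both controls. In B16F10, 1 of the 2 was Rbm11, with 33 counts against 6. Because the values are shares of a library, less of an mRNA per cell and fewer cells that contain it cannot be told apart.

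The 3 lines share no control libraries, and 32 of the 61 genes (52.5%) were lowered in all of them, against 11.7% of all genes tested. Another 5 (8.2%) were raised in all of them, against 11.3% of all genes. Among genes with a mean of at least 10 CPM, 30 of 52 were lowered in every line (57.7%) and 5 raised (9.62%), where 20.7% and 18.4% of all 9523 such genes were. The count of 5 raised genes rested on MelanA libraries, being 3 without MelanA control replicate 1 and 2 without MelanA SX-682 replicate 2, and in MelanA alone the 7 raised genes became 4 without either library. Lowering by at least 0.5 in each line was seen for 6 genes (9.84%, against 1.97% of all genes), namely Hnrnph1, Rbm12, Hnrnpm, Hnrnpa2b1, Rbm5 and Rbmx. No gene was raised by 0.5 in each line, where 2.6% of all genes were.

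**Figure D1:**
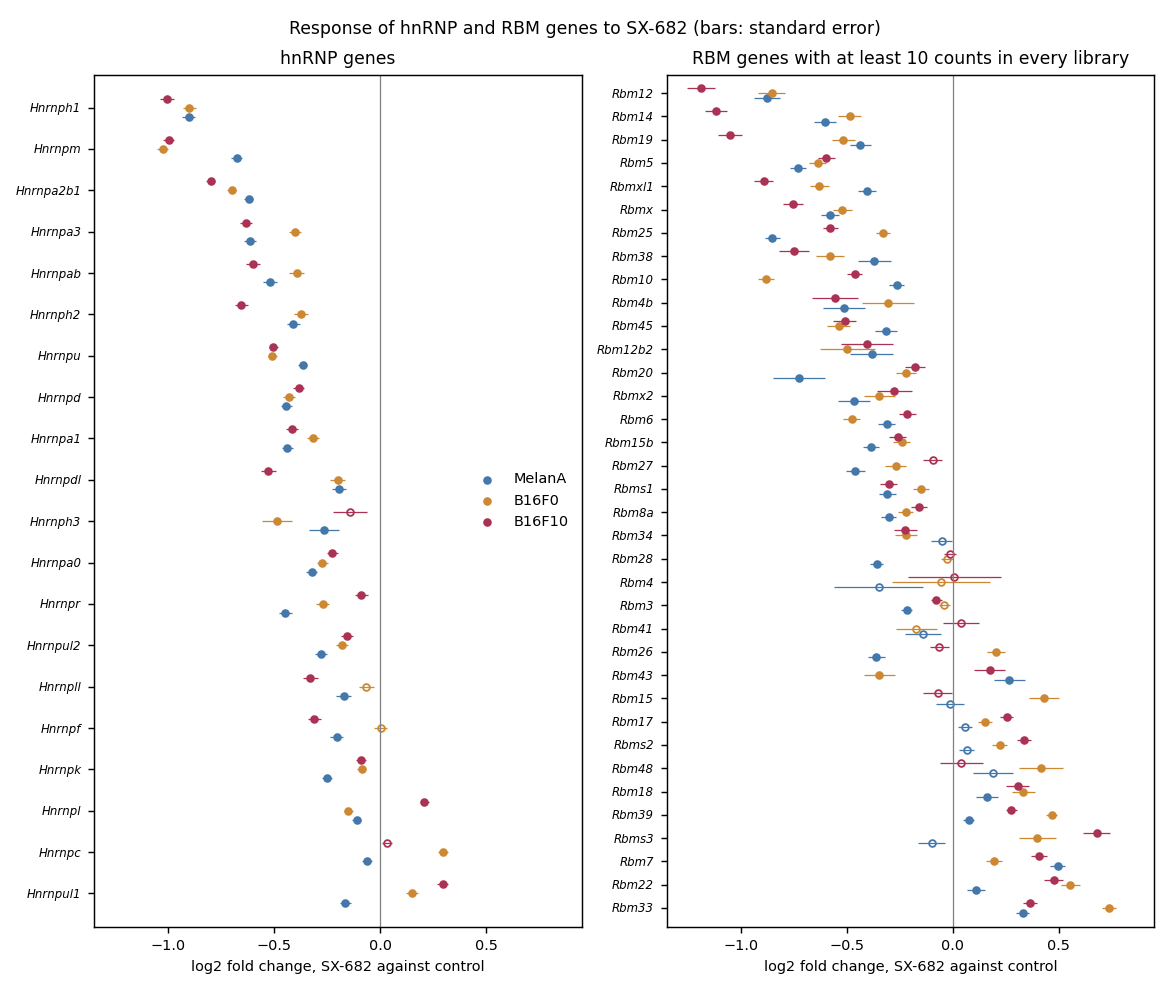
Log2 fold change of SX-682 against no treatment for the 20 hnRNP genes (left) and the 36 RBM genes with at least 10 counts in every library (right), ordered by the mean over the lines. Points are MelanA, B16F0 and B16F10, filled where the adjusted p was under 0.05 and open otherwise, and bars are standard errors; most points lie to the left of 0, down to -1.19 for Rbm12 in B16F10.

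No hnRNP gene had a shared rise, where 11.3% of all genes tested had one, and the shared rises were all of RBM genes. Several role groups of RBM genes, the RBMS and nucleolar genes among them, held no shared rise either. All 20 hnRNP genes were lowered in MelanA, 16 in B16F0 and 16 in B16F10, where 24.7%, 25% and 25.3% of all genes were. In all 3 lines 14 were lowered, against 11.7% of all genes. Of all genes with a mean of at least 10 CPM, 38.4%, 38.4% and 39.8% were lowered in these lines and 20.7% in all 3. Only Hnrnpc and Hnrnpul1 were raised in B16F0, and only Hnrnpl and Hnrnpul1 in B16F10, where 25.1% and 25.5% of all genes were. Among all genes with a mean of at least 10 CPM, 35.5% and 36.5% were raised in these lines and 18.4% in all 3. Summed over the 20 genes, the level was 8437 and 8151 CPM in untreated MelanA and 6247 and 6183 CPM with SX-682. It was 8648 and 8691 CPM in untreated B16F0 against 6747 and 6853 CPM, and 9063 and 9347 CPM in untreated B16F10 against 6783 and 6826 CPM. The means with SX-682 differed from control by -25.1%, -21.6% and -26.1%, and in each line both treated libraries lay below both controls. The 45 RBM genes together differed by -14.1% in MelanA, -3.57% in B16F0 and -6.53% in B16F10.

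**Figure D2:**
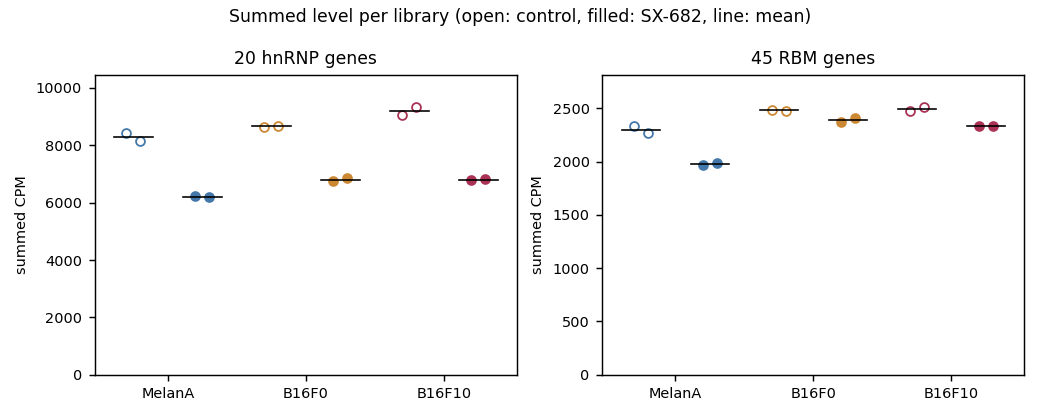
Summed CPM of the 20 hnRNP genes (left) and the 45 RBM genes (right) in each library, open circles for untreated and filled circles for SX-682, with a line at the mean of the 2 libraries. The hnRNP sum lies at 8151 to 9347 CPM without treatment and at 6183 to 6853 CPM with SX-682.

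The A/B and D group packages pre-mRNA and binds AU-rich or UAG-containing RNA. All 7 of its genes were lowered in each line, against 11.7% of all genes tested. Hnrnpa2b1, which also reads methylated adenosine on RNA, lies at chr6:51460932-51469894, minus strand. It stood at 1331 and 1279 CPM in the untreated MelanA libraries and 856 and 842 CPM with SX-682. In B16F0 it was 1064 and 1061 CPM without and 659 and 648 CPM with SX-682, and in B16F10 1604 and 1675 against 929 and 956 CPM. In no line did the groups overlap, and the log2 fold changes were -0.62, -0.70 and -0.80 (SE 0.022, 0.023 and 0.023), with adjusted p-values of at most 1.24e-19 in edgeR. Hnrnpa1, a splicing repressor, changed by -0.44, -0.32 and -0.42 in MelanA, B16F0 and B16F10 and Hnrnpa3 by -0.61, -0.40 and -0.63. Hnrnpab changed by -0.52, -0.39 and -0.60 and Hnrnpd, known as AUF1 and involved in decay of AU-rich mRNA, by -0.44, -0.43 and -0.38. Its relative Hnrnpdl changed by -0.19, -0.20 and -0.53, and Hnrnpa0, an intronless gene, by -0.32, -0.27 and -0.23. All of these passed the test, with adjusted p-values of at most 1.57e-05 for Hnrnpdl and smaller for the others. Transcripts of other genes, most of them processed copies, held 28.2% of the 50-base stretches of Hnrnpa1 and 27.1% of those of Hnrnpa3, and 29.1% of the exonic bases of Hnrnpab lie opposite Phykpl (530 to 1968 counts), so these levels are less certain.

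The F/H group binds runs of guanine near splice and polyadenylation sites. Among the 61 tested genes, Hnrnph1 (chromosome 11, promoter printed above) had the largest shared fall when ranked by the line with the smallest change. Its levels were 239 and 231 CPM in the untreated MelanA libraries and 126 and 125 CPM with SX-682. They were 284 and 277 CPM in untreated B16F0 against 149.5 and 151 CPM with SX-682, and 132 and 138 against 64.7 and 69.7 CPM in B16F10. In each line both treated libraries lay far below both controls. The log2 fold changes were -0.90, -0.90 and -1.0 (SE 0.031, 0.031 and 0.034), with adjusted p-values of at most 3.71e-20. Hnrnph2, its X-linked relative, changed by -0.41, -0.37 and -0.66. Hnrnph3 was lowered in MelanA (-0.26) and B16F0 (-0.48), while its difference in B16F10 was -0.14 with an adjusted p of 0.141; without MelanA SX-682 replicate 1 the MelanA value was -0.18 with an adjusted p of 0.116. Hnrnpf was lowered in MelanA (-0.20) and B16F10 (-0.31), and in B16F0 its untreated libraries at 344 and 343 CPM and treated ones at 342 and 346 CPM overlapped. Copies of Hnrnpf in other genes held 36.8% of its 50-base stretches.

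The C, K, L, M and R group was mixed. Hnrnpm, a splicing regulator that binds GU-rich RNA, lies at chr17:33646233-33686860, minus strand, and 14.7% of its exonic bases are shared with its neighbour March2. It was measured at 417 and 405 CPM in the untreated MelanA libraries and 256 and 258 CPM with SX-682. In B16F0 the values were 391 and 393 CPM against 194 and 191 CPM and in B16F10 465 and 485 CPM against 235 and 241 CPM. The groups were well apart, with log2 fold changes of -0.68, -1.03 and -1.0 (SE 0.025, 0.026 and 0.025) and adjusted p-values of at most 1.77e-19. Hnrnpk, which binds C-rich RNA and DNA, changed by -0.25, -0.09 and -0.09, and Hnrnpr by -0.45, -0.27 and -0.09. The fall of Hnrnpr in B16F10 was small and lost its call without B16F10 control replicate 2 (-0.06, adjusted p = 0.254) or B16F10 SX-682 replicate 2 (-0.07, adjusted p = 0.183). Hnrnpll, which regulates exon choice in lymphocytes, was lowered in MelanA (-0.17) and B16F10 (-0.33), and in B16F0 the value was -0.07 with an adjusted p of 0.133. That B16F0 value passed without control replicate 1 (-0.11, adjusted p = 0.0427) and without SX-682 replicate 2 (-0.12, adjusted p = 0.00749).

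Hnrnpl, which binds CA-rich RNA, and Hnrnpc, a uridine-tract binder that forms the core particle on pre-mRNA, moved in opposite directions between lines. Hnrnpl was measured at 337 and 338 CPM in the untreated MelanA libraries and 312 and 312 CPM with SX-682, and at 347 and 341 CPM against 311 and 308 CPM in B16F0. In B16F10 it was 364 and 364 CPM without and 417 and 425 CPM with SX-682. Thus it was lowered in MelanA (-0.11) and B16F0 (-0.15) and raised in B16F10 (0.21). The response in B16F10 exceeded that in B16F0 by 0.36 (SE 0.032, adjusted p = 4.85e-10 in edgeR's test of the difference). Hnrnpc was raised in B16F0, from 256 and 263 CPM to 317 and 320.4 CPM (0.30, adjusted p = 9.04e-12), and its B16F10 libraries held 339 and 342 CPM against 349.7 and 348 CPM (0.03, adjusted p = 0.275). In MelanA its small fall of -0.06 had an adjusted p of 0.0266 and lost its call in 11 of the alternatives, among them the removal of any single MelanA library, with values down to -0.04 without SX-682 replicate 2 (adjusted p = 0.296).

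Of the U group, which binds chromatin-associated RNA, Hnrnpu (SAF-A) and Hnrnpul2 were lowered in each line. Hnrnpu was measured at 984 and 976 CPM in the untreated MelanA libraries and 759 and 762 CPM with SX-682. It stood at 777 and 806 CPM against 544 and 568 CPM in B16F0 and at 973 and 988 CPM against 698 and 686 CPM in B16F10. Control and treated libraries did not overlap, and the log2 fold changes were -0.37, -0.51 and -0.50 (SE 0.022, 0.022 and 0.022, adjusted p at most 1.96e-14). Hnrnpul2 changed by -0.28, -0.18 and -0.16. Hnrnpul1 was lowered in MelanA (-0.16) and raised in B16F0 (0.15) and B16F10 (0.30). Its 12 values were 202 and 191 CPM against 175 and 175 CPM in MelanA, 168 and 170.4 against 186 and 188 in B16F0 and 220.5 and 218 against 268 and 270.0 in B16F10. Its mean response in the B16 lines exceeded that in MelanA by 0.39 (SE 0.033, adjusted p = 1.06e-10).

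**Figure D3:**
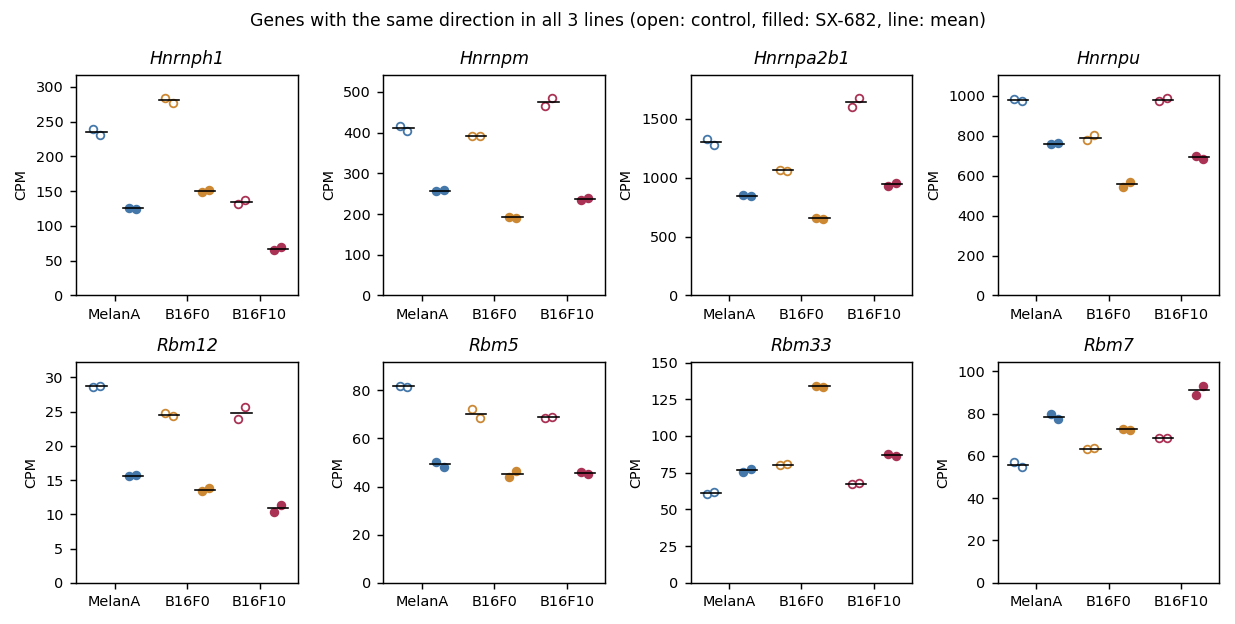
CPM in each library for 8 genes that changed in the same direction in all 3 lines, open circles for untreated and filled circles for SX-682, with a line at the mean of the 2 libraries and axes starting at 0. For the first 6 genes both SX-682 libraries lie below both controls in every line, and for Rbm33 and Rbm7 above them.

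Among RBM genes, 18 of the 41 tested were lowered and 5 raised in all 3 lines, where 11.7% and 11.3% of all genes were. The share of raised RBM genes thus lay near that of all genes tested. Of all genes with a mean of at least 10 CPM, 20.7% were lowered and 18.4% raised in every line. The RBM genes described besides the 5 largest shared falls and the 5 shared rises were picked after their values had been seen. Rbmx encodes hnRNP G, a nuclear splicing regulator also bound to chromatin. It was measured at 49.4 and 47.8 CPM in the untreated MelanA libraries and 32.4 and 32.6 CPM with SX-682, at 47 and 46.7 against 33.2 and 31.9 CPM in B16F0 and at 46.8 and 48.3 against 28.4 and 27.9 CPM in B16F10. All treated libraries lay below the controls of their line, with log2 fold changes of -0.58, -0.52 and -0.75 (SE 0.044, 0.045 and 0.046, adjusted p at most 4.91e-11). Its retrogene Rbmxl1 changed by -0.41, -0.63 and -0.89, but 79.6% of its 50-base stretches also occur in other genes, most of them in Gm7324, which held 17 to 513 counts.

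Of 10 splicing regulators tested, 6 were lowered in all 3 lines and 1 was raised in all 3, against 11.7% and 11.3% of all genes. In B16F0 and B16F10 each 2 of the 10 were raised, where 25.1% and 25.5% of all genes were. Rbm5, a regulator of splicing in apoptosis genes, lies at chr9:107740371-107770996, minus strand. It was measured at 82 and 81.3 CPM in the untreated MelanA libraries and 50.1 and 48.2 CPM with SX-682. The B16F0 libraries held 72 and 68.4 against 43.9 and 46.6 CPM and the B16F10 libraries 68.5 and 69 against 45.9 and 45 CPM. The log2 fold changes were -0.73, -0.64 and -0.60 (SE 0.039, 0.041 and 0.041, adjusted p at most 1.83e-13), and neither test of a difference between lines passed (adjusted p = 0.0658 for B16 against MelanA and 0.692 for B16F10 against B16F0), although the first did without B16F0 SX-682 replicate 1 (0.13, adjusted p = 0.0427). Its relatives Rbm6 (-0.31, -0.48 and -0.22) and Rbm10 (-0.27, -0.88 and -0.46) were also lowered, and Rbm10 fell most in B16F0, with a response 0.42 higher in B16F10 than in B16F0 (adjusted p = 2.1e-07). Copies of Rbm10 in other genes held 41.0% of its 50-base stretches, 31.4% in Gm12799 with 6 to 19 counts. Rbm25, a U1-associated regulator, changed by -0.85, -0.33 and -0.58 and Rbm4b by -0.51, -0.31 and -0.56. The B16F0 fall of Rbm4b lost its call with DESeq2, with no filter, in a separate fit of the line and without B16F0 control replicate 1, control replicate 2 or SX-682 replicate 2, with -0.20 (adjusted p = 0.298) without the last. Rbm39, an SR-like cofactor of U2AF, was raised by 0.08, 0.47 and 0.27, and its MelanA rise lost its call without MelanA control replicate 2 (0.07, adjusted p = 0.0646) or SX-682 replicate 2 (0.06, adjusted p = 0.128).

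Ranked the same way, the largest shared fall of an RBM gene was that of Rbm12, whose product carries several RNA recognition motifs. It was measured at 28.6 and 28.8 CPM in the untreated MelanA libraries and 15.6 and 15.8 CPM with SX-682, at 24.9 and 24.3 against 13.4 and 13.8 CPM in B16F0 and at 24 and 25.7 against 10.4 and 11.4 CPM in B16F10. The treated and untreated libraries of a line did not overlap. The log2 fold changes were -0.88, -0.86 and -1.19 (SE 0.061, 0.065 and 0.067, adjusted p at most 2.75e-12). About 33.1% of its exonic bases belong to other annotated genes, mainly Gm28036, which held 0 to 6 counts. Rbm14, a paraspeckle component and transcriptional coactivator, changed by -0.60, -0.49 and -1.12 (SE 0.051, 0.053 and 0.054). It fell further in B16F10 than in B16F0, from 52.9 and 54.8 to 24.7 and 25 CPM against 42.4 and 40.6 to 31.2 and 27.8 CPM, a difference of -0.63 (SE 0.076, adjusted p = 1.33e-07). Rbm19, a nucleolar protein of ribosome biogenesis, changed by -0.44, -0.52 and -1.05, and its response in B16F10 minus that in B16F0 was -0.53 (adjusted p = 3.22e-06). The other nucleolar genes, Rbm28 and Rbm34, were not lowered in all lines.

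Of the 7 spliceosome and exon junction genes tested, 2 were lowered and 1 was raised in all 3 lines. Of all genes tested, 11.7% were lowered and 11.3% raised in every line. Rbm8a, the exon junction protein Y14, changed by -0.30, -0.22 and -0.16 and Rbmx2 by -0.47, -0.35 and -0.28, though the B16F10 fall of Rbmx2 lost its call without SX-682 replicate 2 (-0.15, adjusted p = 0.202). Rbm22, which holds the active site of the spliceosome with U6, was raised. It was measured at 48.1 and 51.4 CPM in the untreated MelanA libraries and 53.7 and 53.6 CPM with SX-682, at 31.7 and 32.1 against 45.9 and 47.9 CPM in B16F0 and at 44.6 and 46.6 against 64.5 and 62.2 CPM in B16F10. The rises were 0.11, 0.55 and 0.47 (SE 0.042, 0.046 and 0.044), and that in MelanA lost its call without control replicate 1 (0.07, adjusted p = 0.304) and without either SX-682 library (0.12 in both, adjusted p = 0.0876 and 0.0877).

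The shared rises were otherwise found in Rbm33, Rbm7 and Rbm18. Rbm33, an RNA-binding partner of the demethylase ALKBH5, was measured at 60.4 and 61.6 CPM in the untreated MelanA libraries and 75.6 and 77.5 CPM with SX-682. It stood at 80.3 and 80.6 against 134 and 134 CPM in B16F0 and at 67.3 and 67.9 against 87.6 and 86.5 CPM in B16F10. Every treated library was above the controls of its line, and the log2 fold changes were 0.33, 0.74 and 0.36 (SE 0.032, 0.032 and 0.033, adjusted p at most 6.73e-10). Rbm7, the RNA-binding subunit of the nuclear exosome targeting complex, was measured at 56.9 and 54.6 CPM in the untreated MelanA libraries and 79.6 and 77.4 CPM with SX-682, at 63.2 and 63.7 against 72.9 and 72.2 CPM in B16F0 and at 68.6 and 68.6 against 88.6 and 93.3 CPM in B16F10. Its rises of 0.49, 0.19 and 0.41 (SE 0.036, 0.037 and 0.036) passed the test, with adjusted p-values of at most 5.25e-05. Rbm18 rose by 0.16, 0.33 and 0.31, and its MelanA call was lost without MelanA control replicate 1 (0.11, adjusted p = 0.172) or SX-682 replicate 2 (0.11, adjusted p = 0.191).

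Of the subunits of the adenosine methylation complex, Rbm15b was lowered in each line (-0.39, -0.24 and -0.26) and Rbm15 was raised in B16F0 alone (0.43), its values elsewhere being -0.01 in MelanA and -0.07 in B16F10. Rbm38, a target of p53 that stabilises mRNA, changed by -0.37, -0.58 and -0.75, and the cold-inducible Rbm3 was lowered in MelanA (-0.22) and B16F10 (-0.08), its B16F0 value being -0.04 (adjusted p = 0.197), and its B16F10 call was lost without SX-682 replicate 2 (-0.07, adjusted p = 0.0691). Of the RBMS genes, whose products bind single-stranded nucleic acid, Rbms1 was lowered in each line (-0.31, -0.15 and -0.30). The response of Rbms3 differed between lines. It was measured at 22.9 and 21.7 CPM in the untreated MelanA libraries and 21.1 and 20.5 CPM with SX-682, at 5.73 and 6.44 against 7.94 and 8.08 CPM in B16F0 and at 19.1 and 18.2 against 30.5 and 29.2 CPM in B16F10. It was raised in both B16 lines (0.40 and 0.68), and the value in MelanA was -0.10 (adjusted p = 0.2).

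The mean response of the B16 lines was tested against that of MelanA. It was higher for 21 and lower for 15 of the 61 genes, where 18.7% and 17.1% of all genes were called. As shares of the 61 genes these were 34.4% and 24.6%. Differences of at least 0.5 were found for 3 genes with a higher and 1 with a lower response, against 5.6% and 5.38% of all genes. The largest differences among RBM genes were those of Rbm12b1 (-3.70), Rbm11 (1.69), Rbms3 (0.64, SE 0.083, adjusted p = 2.61e-07) and Rbm20 (0.52, SE 0.13, adjusted p = 0.00152). Rbm20, known as a regulator of titin splicing in heart, fell from 3.05 and 2.5 to 1.85 and 1.5 CPM in MelanA and from 55.6 and 52.8 to 46.1 and 47 CPM in B16F0. Its difference did not pass without MelanA control replicate 1 (0.37, adjusted p = 0.0521) or MelanA SX-682 replicate 2 (0.37, adjusted p = 0.0696). The value of Rbm12b1 rested on 7 counts with SX-682 against 1 without in MelanA, a ratio of 8.47 with a 95% exact interval from 1.09 to 382 that covers counting error only. It too did not pass without MelanA control replicate 1 (-2.92, adjusted p = 0.0624) or SX-682 replicate 1 (-2.90, adjusted p = 0.176). In the B16 lines Rbm12b1 was lowered, from 3.64 and 3.58 to 1.65 and 1.66 CPM in B16F0 and from 4.98 and 5.18 to 3.3 and 2.53 CPM in B16F10.

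Between the B16 lines, the response in B16F10 was higher than in B16F0 for 12 genes and lower for 20, against 15.3% and 14.9% of all genes. By at least 0.5 it was higher for 3 and lower for 3, against 4.56% and 3.84% of all genes. The count of 12 was 7 without B16F10 control replicate 1. Rbm11, a splicing regulator known from brain and testis, was raised from 3.26 and 3.24 to 5.04 and 4.61 CPM in B16F0 (0.57, adjusted p = 0.0291), a call lost without any one of the B16F0 libraries (0.51 to 0.63, adjusted p = 0.0594 to 0.176). In B16F10 it held 6 counts over both controls and 33 with SX-682, a ratio of 5.74 (95% exact interval 2.38 to 16.8). The difference of 1.90 between these responses had an adjusted p of 0.0212, and it did not pass without either B16F10 control (adjusted p = 0.0755 and 0.0939) or without B16F10 SX-682 replicate 1 (adjusted p = 0.255). Rbm47, an epithelial RNA-binding protein, held 2 counts in B16F10 controls and 13 with SX-682, a ratio of 6.79 (95% exact interval 1.54 to 61.9). In B16F0 it held 1 and 10 counts in the controls and 1 and 1 with SX-682. The fitted difference of 4.69 between these responses (adjusted p = 0.0473) lost its call in 10 alternatives, 9 of them single libraries left out. Without B16F0 control replicate 2 the difference was 2.28.

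**Figure D4:**
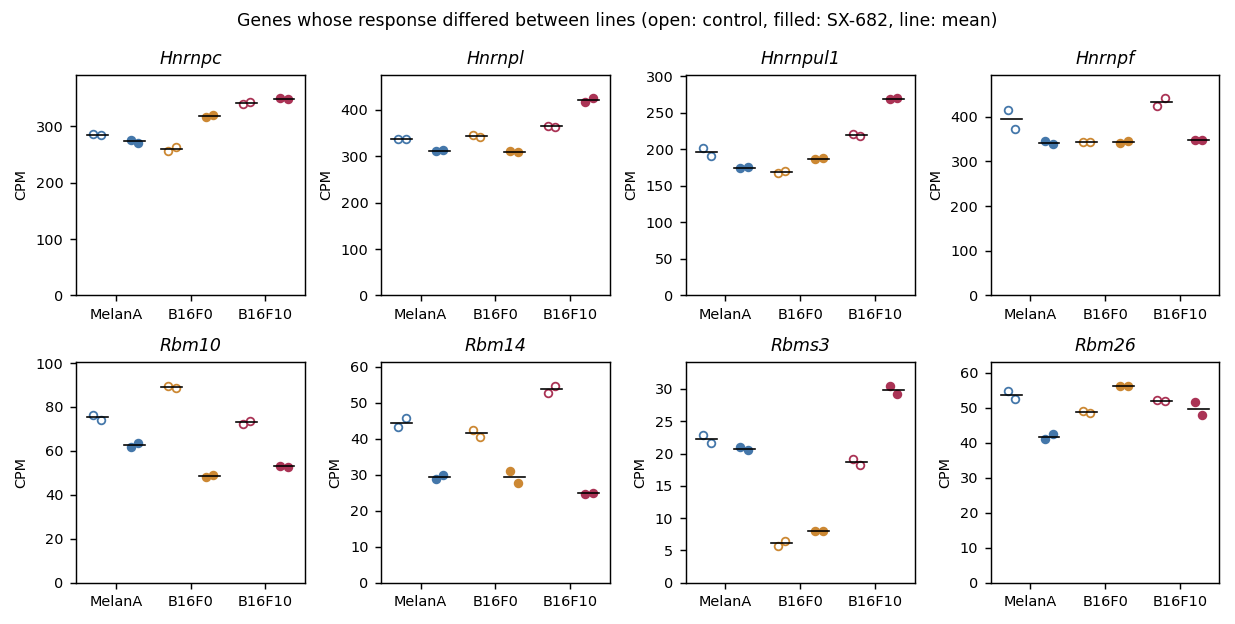
CPM in each library for 8 genes whose response to SX-682 differed between lines, open circles for untreated and filled circles for SX-682, with a line at the mean of the 2 libraries and axes starting at 0. With SX-682, Hnrnpc passed the test as raised in B16F0 alone, Hnrnpl in B16F10 alone, and Hnrnpul1 and Rbms3 in both B16 lines, while Rbm10 and Rbm14 lie lower in each line.

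The levels before treatment give the setting for these changes, and they share their control libraries with the tests above. Per kilobase of exon, Hnrnpab ranked first of the 65 genes in each untreated line, at 306 CPM per kb in MelanA, 399 in B16F0 and 297 in B16F10. Hnrnpa1, Hnrnpa2b1, Hnrnpa3, Hnrnpf and Hnrnpa0 took the next 5 places in each line, though in different orders. Rbm3, at 90.6, 84.9 and 86.3 CPM per kb, was the highest RBM gene. The lowest of the tested hnRNP genes was Hnrnph3 in MelanA and B16F10, at 5.26 and 3.73 CPM per kb.

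In comparisons between untreated lines, line and culture cannot be told apart. Without treatment, 23 of the 61 genes were higher and 19 lower in the B16 lines than in MelanA, against 33.7% and 42.4% of all genes. By at least 0.5 these were 6 and 4, against 20.1% and 30.6% of all genes. With DESeq2 the split was 17 to 21, with RLE scaling 17 to 22 and with at least 10 counts in every library 15 to 24. The larger count changed sides in each of these alternatives. The median over all genes in this contrast was -0.09. The largest difference was that of Rbm12b1, with 1 count over both untreated MelanA libraries, 514 in B16F0 and 632 in B16F10. Its ratios were 641 (95% exact interval 114 to 25400) and 900.0 (161 to 35600). Its neighbour Rbm12b2, which shares 55.1% of its 50-base stretches with Rbm12b1, was higher in MelanA, at 11.9 and 11.3 CPM against 5.19 and 4.61 in B16F0 and 6.4 and 5.54 in B16F10. How reads shared by the pair were counted is not given in the sources used here, which leaves both levels uncertain. Rbm20 stood at 3.05 and 2.5 CPM in MelanA, 55.6 and 52.8 in B16F0 and 75.3 and 75.5 in B16F10, a difference of 4.53 (SE 0.064, adjusted p = 2.84e-31). Rbm38 was higher by 1.43 (SE 0.062) and Rbm44 held 15 and 27 counts in the untreated MelanA libraries, 3 and 0 in B16F0 and 0 in both B16F10 libraries, so that no fold is given.

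The B16 lines also differed from each other, with 32 genes higher and 17 lower in untreated B16F10 than in B16F0, against 30.8% and 31.2% of all genes. By at least 0.5 these were 10 and 6, against 15.2% and 18.7%. Close relatives went opposite ways. Hnrnph1 was lower in B16F10 by -1.06 on the log2 scale (SE 0.031), at 132 and 138 CPM against 284 and 277, and Hnrnph2 was higher by 1.03 (SE 0.031), at 161 and 162 CPM against 78.9 and 78.9. Hnrnpa1 was lower (-0.87) and Hnrnpa2b1 higher (0.63), and Hnrnpd was higher by 0.95. Rbms3 was higher in B16F10 by 1.62 (SE 0.076, adjusted p = 1.27e-17), and Rbm11, at 3.26 and 3.24 CPM in B16F0, held 6 counts over both untreated B16F10 libraries.

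**Figure D5:**
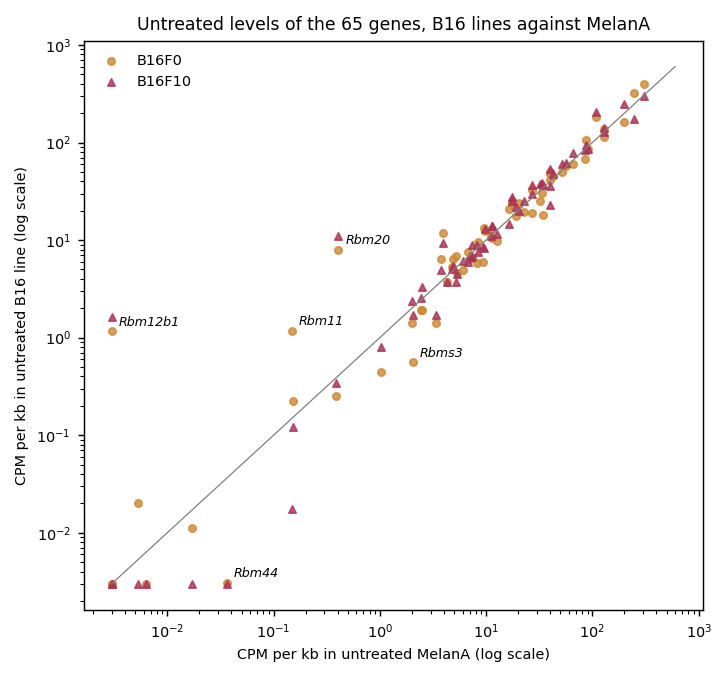
Mean CPM per kilobase of exon of each of the 65 genes in untreated B16F0 (circles) and B16F10 (triangles) against untreated MelanA, both axes on a log scale with values under 0.003 drawn at 0.003. Most genes lie close to the line of equal levels, and Rbm12b1 and Rbm20 lie far above it.

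Other RNA-binding protein genes outside the name rule were also more often lowered than raised. Of 38 hnRNP-related and splicing-regulator genes listed, 37 were tested. The list was drawn up with earlier results of these data known, so its counts are no independent support. In MelanA 27 were lowered and 1 raised (24.7% and 23.4% of all genes), in B16F0 20 and 8 (25% and 25.1%) and in B16F10 23 and 6 (25.3% and 25.5%). In all 3 lines 17 were lowered and 1 was raised, against 11.7% and 11.3% of all genes. The largest shared falls were those of Sfpq, a paraspeckle protein, at -1.28, -1.37 and -1.52, of Tardbp, which encodes TDP-43, at -0.76, -0.65 and -1.14, and of Safb at -0.54, -0.60 and -0.53. The cold-inducible Cirbp was the raised gene, at 0.50, 0.38 and 0.95.

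The annotation shows what a count per gene does not resolve. In GENCODE M21, 23 of the 65 genes (35.4%) have a transcript marked for nonsense-mediated decay, against 20.8% of 22028 coding genes, and 40 (61.5%) have a retained-intron transcript, against 41.4%. Among hnRNP genes these were 10 and 14 of 20. Hnrnph1 has neither, though only 3 of its 18 transcripts are marked as coding, while Rbm5 has 4 and 13 such transcripts and Rbm39, which was raised, has 8 and 7. Whether SX-682 altered the balance between coding and non-coding transcripts of these genes cannot be told from counts summed over a gene.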

How the data were processed

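RNA from cultures of MelanA, B16F0 and B16F10 was sequenced, and the authors deposited raw read counts per gene for 12 libraries, without normalization, with gene symbols and coordinates. The submitters' processing notes name cutadapt, STAR, DESeq2 and mm10, whereas the counting program, its strand setting and its rule for shared exons are not given in the sources used here. Groups and replicate numbers were taken from the sample labels. The 65 genes, the role groups and the list of related genes were chosen with earlier results of these data known.

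In R 4.3.3, counts of all genes were fitted with edgeR 4.0.16 (filterByExpr, TMM, glmQLFit and glmQLFTest, prior count 0.125) in 1 model of the 6 groups, with residual degrees of freedom of 6 and prior degrees of freedom of 21.9. Standard errors came from the fold change and the F statistic. Calls used an adjusted p under 0.05. Replicates of a group differed by more than counting noise (chi-square per gene 2.73 to 5.05). Intervals and the floor of 3 counts per library (0.033 to 0.0623 CPM) cover counting error only. Replicate numbers were not used as pairs in the main fit. Deviations of same-numbered libraries correlated at 0.0011 to 0.022 over the genes tested. Such a value cannot show whether same-numbered cultures were handled together.

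Named with values were each hnRNP gene kept by the filter, the 5 RBM genes with the largest fall and the 5 with the largest rise shared by the lines (by the smallest absolute change over the lines), the 4 RBM genes with the largest called difference in each response contrast and between untreated B16 lines and MelanA, the genes with too few counts, and 3 related genes in each direction. Other genes were picked after their values were seen. Alternatives were DESeq2 1.42.0, no filter, RLE scaling, a minimum of 10 counts in every library, a fit per line, the replicate block, an adjusted p under 0.01, a log2 change of at least 0.5 and each library left out. Counts over genes of at least 10 CPM, and over genes with at most 20% of exonic bases and of 50-base stretches shared with another gene, were chosen after seeing the data. The fits were also run on simulated counts in which few genes changed, by the same amount in every line. Many more genes were called in these data, so that run does not give their rate of false calls. Exon overlaps used GENCODE M21, which holds the 65 genes, 64 of them at the deposited coordinates, and promoters came from RefSeq (GRCm38.p6).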

Additional observations from a re-analysis of the deposited data

Results flagged for a closer look

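Responses to SX-682 that differed between lines, by edgeR's quasi-likelihood test of the difference itself, are given here as log2 differences. For the mean of the B16 lines minus MelanA, the hnRNP genes with a lower response in B16 were Hnrnpm (-0.33), Hnrnpdl (-0.17), Hnrnpu (-0.14), Hnrnpa2b1 (-0.13) and Hnrnph2 (-0.10). Those with a higher response were Hnrnpul1 (0.39), Hnrnpr (0.27), Hnrnpc (0.23), Hnrnpk (0.16), Hnrnpl (0.14), Hnrnpul2 (0.11) and Hnrnpa3 (0.10). Of these small differences, that of Hnrnpa3 did not pass in 9 alternatives, DESeq2 among them (0.09, adjusted p = 0.184). That of Hnrnpul2 did not pass without MelanA control replicate 1 (0.08), MelanA SX-682 replicate 2 (0.08) or B16F10 SX-682 replicate 2 (0.09). The difference of Hnrnph2 did not pass without MelanA control replicate 2 (-0.08) or MelanA SX-682 replicate 2 (-0.11). Among RBM genes the differences were -3.70 for Rbm12b1, 1.69 for Rbm11, 0.64 for Rbms3 and 0.52 for Rbm20, and those of Rbm12b1 and Rbm11 rest on few counts.

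For B16F10 minus B16F0, the response was lower in B16F10 for Rbm14 (-0.63), Rbm19 (-0.53), Hnrnpdl (-0.33), Hnrnpf (-0.31), Hnrnph2 (-0.28), Hnrnpc (-0.26), Hnrnpll (-0.26), Hnrnpa3 (-0.23), Hnrnpab (-0.21) and Hnrnpa2b1 (-0.10). It was higher for Hnrnpul1 (0.15), Hnrnpr (0.18), Hnrnph3 (0.34), Hnrnpl (0.36), Rbm11 (1.90) and Rbm47 (4.69). The difference of Hnrnpa2b1 did not pass without B16F10 control replicate 2 (-0.07) or B16F10 SX-682 replicate 1 (-0.09). That of Hnrnph3, a gene of 10 to 22 CPM, did not pass in 4 of the fits with 1 library left out, with values of 0.30 to 0.32. The group sizes allowed no test for a single library far from its group.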

How the results depend on the processing

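Of 4165 recomputed values for 236 named results, some of them added after seeing the data, 4040 kept direction and side of the threshold, 112 lost the call, 5 gained it and 8 changed sign, all for values that had not passed the test. They were Hnrnpf in B16F0 (-0.0036 with no filter, and -0.0059 to 0.011 over the fits with 1 library left out, of which 3 were below 0), Rbm15 in MelanA (-0.057 to 0.048 with 1 library left out) and the B16F10 minus B16F0 response of Rbm5 (-0.0083 to 0.078 with 1 left out). Requiring a log2 change of at least 0.5 cut the counts to 1 higher and 12 lower in MelanA, 3 and 13 in B16F0, 2 and 19 in B16F10, and 0 and 6 in all 3 lines. It left 3 and 1 for the B16 minus MelanA response, 3 and 3 for B16F10 minus B16F0, 6 and 4 for untreated B16 minus MelanA, 10 and 6 for untreated B16F10 minus B16F0, and 0 and 3 for the related genes in all lines. An adjusted p under 0.01 left 3 genes higher in MelanA, 7 with a higher response in B16F10 than in B16F0 and 2 raised in all lines. A minimum of 10 counts in every library left 15 genes higher in untreated B16 than in MelanA, and RLE scaling and DESeq2 left 17 each. The all-gene medians in that contrast were -0.09 under TMM, -0.12 under RLE and -0.12 with DESeq2. Leaving out 1 library gave 4 to 7 genes higher in MelanA, 2 to 5 raised in all lines and 7 to 13 with a higher response in B16F10 than in B16F0. Genes lowered in all 3 lines numbered 30 to 33 with 1 library left out and 32 with the replicate block. The replicate block gave 5 raised in all lines and moved no count by over 1.5 times. The cause of these changes was not tested. Depth limited Rbm11, Rbm12b1, Rbm44 and Rbm47.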

Other observations

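A few RBM genes, picked after their values were seen, changed in some lines or in opposite directions. Rbm43 was raised in MelanA (0.27) and lowered in B16F0 (-0.35). Its B16F10 value of 0.17 had an adjusted p of 0.0498, just under the threshold, and it did not pass with DESeq2 (adjusted p = 0.109), RLE scaling (0.0589), no filter (0.176) or any single library left out (0.0588 to 0.173). Rbm26, whose product works with nuclear RNA decay, was lowered in MelanA, from 54.8 and 52.5 to 41 and 42.4 CPM (-0.36), and raised in B16F0, from 49 and 48.6 to 56.2 and 56.4 CPM (0.21), while the B16F10 value was -0.06 (adjusted p = 0.231 in edgeR, and 0.0486 without B16F10 SX-682 replicate 1). Its relative Rbm27 was lowered in MelanA (-0.46) and B16F0 (-0.27). The U2-associated Rbm17 was raised in B16F0 (0.15) and B16F10 (0.25), and its MelanA value was 0.06 (adjusted p = 0.138). Rbms2 gave 0.22 and 0.34 in the B16 lines, both called, and 0.07 in MelanA (adjusted p = 0.134, and 0.0438 without MelanA SX-682 replicate 1). Rbm28 was lowered in MelanA (-0.36), and its values in B16F0 and B16F10 were -0.03 and -0.02, neither called.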
